A study of Danio rerio with 24 samples.

Results

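Messenger RNA of the nuclear subunits and assembly factors of mitochondrial complex I was followed in the livers of 24 male zebrafish, 1 library per fish. Members were the gene rows whose identifier carries a symbol starting with NDUF, and 49 of 32105 gene rows met that rule. They comprised 7 core subunits, 31 accessory subunits, 7 assembly factors and 4 rows of the NDUFA4 kind (NDUFA4, ndufa4b, NDUFA4L2 and ndufa4l2b), which are named for complex I but belong to complex IV or are paralogs of such a subunit. The reference table listed 50 NDUF symbols; NDUFAF3 is not analysed here.

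Complex I takes electrons from NADH to ubiquinone and pumps protons across the inner mitochondrial membrane. Its core subunits, some encoded in the nucleus and some in mitochondrial DNA, carry the flavin, the iron-sulfur clusters, the quinone site and the pumps. Accessory subunits surround that core, and assembly factors help to build the enzyme without remaining in it. Rotenone, the agent given to these fish, blocks electron transfer at the quinone site. Roles given below for single proteins come from mammals, mostly from human cells.

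The 3 groups were 3-year fish at 37.5 nM rotenone (n = 6), 1-year fish at 37.5 nM (n = 9) and 1-year fish at 3.75 nM (n = 9). The 1-year fish were of strain AB JxTu. The 3-year fish were AB JxTu Tg(flk:mCherry), so age and the transgene cannot be told apart. All fish were labelled with a rotenone concentration, so there is no untreated group to compare with, and the labels do not say how long exposure lasted. The 3.75 nM fish were deposited in a count table of their own, so dose and deposited set cannot be told apart. The fish are numbered in a lower series, 163 to 181, and an upper series, 189 to 202, and the labels give no reason for the gap. In group order, the upper series comprised 4, 5 and 5 fish and the lower series 2, 4 and 4.

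Libraries held 24644663 to 45297644 counts. Sums and values of cell type markers are CPM of the raw library total, and CPM of all other genes use totals scaled by the TMM factors, so the 2 kinds of value are on different scales. Hepatocyte markers such as tfa and fabp10a, 14 gene rows, summed to 132755 to 248891 CPM and so were abundant in every library labelled liver. In 5 fish (166, 190, 192, 198 and 200) the summed intestine-restricted markers lay between 675 and 27733 CPM, and in the other 19 fish they did not exceed 118.5 CPM. The 4 lower-series fish at 3.75 nM (163, 165, 166 and 167) also stood apart: all 4 lay above the other 20 fish in 6.43% of all genes tested for dose. Counts of members called in the dose, lower-series, 3.75 nM series and interaction comparisons are given with and without the 5 fish rich in intestine markers. Counts of pathway genes are given in the same way for each list with a call. In bulk RNA, fewer cells of a type and less RNA per cell cannot be told apart.

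Per length, the core subunits formed a narrow band and the assembly factors lay far below it. Levels were compared between members as CPM per kb of gene model, averaged over the 24 fish. The 6 core subunits described by name spanned 34.5 to 60.5 CPM per kb, with a median of 47.4. The 31 accessory subunits had a median of 38.3 and ran from 1.49 (ndufa9b) to 170 CPM per kb (ndufc2, a subunit of the membrane arm). The 7 assembly factors spanned 1.42 (NDUFAF8) to 8.36 CPM per kb (NDUFAF5), with a median of 2.56, and none reached the lowest core subunit, NDUFS7. NDUFA4 had the highest level of all members with a known length, at 383 ± 136 CPM per kb in 3-year fish at 37.5 nM (n = 6), 347 ± 62.2 in 1-year fish at 37.5 nM (n = 9) and 361 ± 84.7 in 1-year fish at 3.75 nM (n = 9; mean ± SD). Lengths were kept only for members with enough counts. None is given for NDUFA4L2 and ndufa4l2b, which had at most 54 counts and 1 count in any fish.

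**Figure D1:**
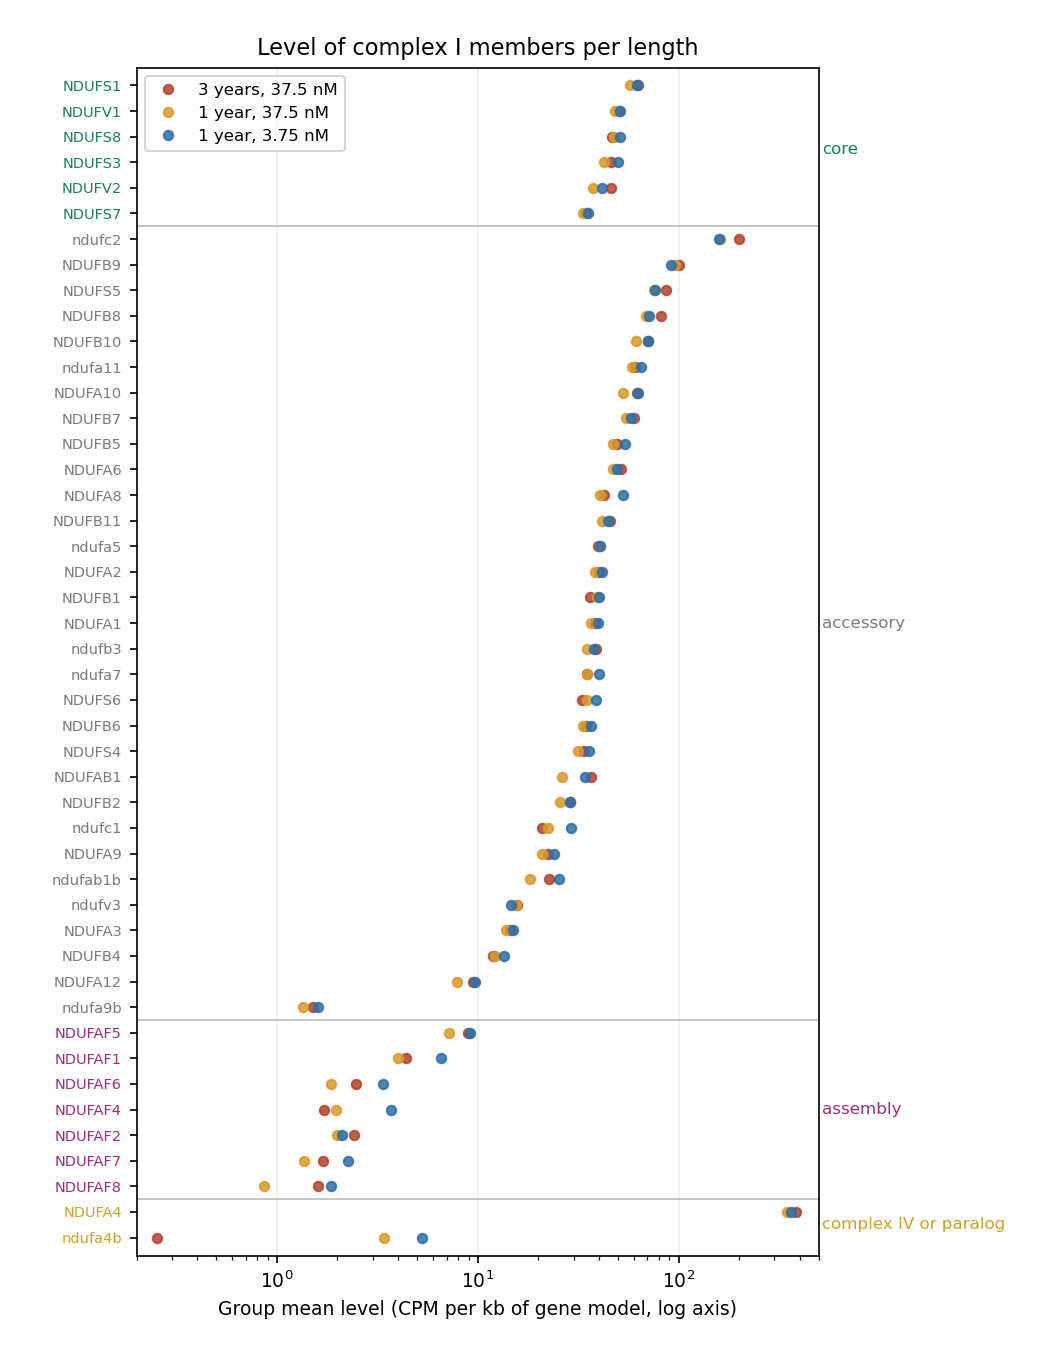
Group mean level of the members described here for which a length was kept, in CPM per kb of gene model on a log axis. Members are grouped by role and ordered by the mean over all fish, and each point is the mean of 1 group. The 6 core subunits drawn lie between 34.5 and 60.5 CPM per kb on average over all fish, and assembly factors between 1.42 and 8.36.

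For the core subunits, values of the 3 groups overlapped throughout. NDUFS1, which carries iron-sulfur clusters, averaged 158 ± 30.5 CPM in 3-year fish at 37.5 nM, 145 ± 22.1 CPM in 1-year fish at 37.5 nM and 156 ± 19.9 CPM in 1-year fish at 3.75 nM. NDUFV1, which binds NADH and the flavin, averaged 130 ± 12.8, 125 ± 18.4 and 132 ± 16 CPM in the same groups. For both genes the SD within each group exceeded the differences between the group means.

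The remaining core subunits overlapped between groups too. NDUFS8, an iron-sulfur subunit, averaged 73.8 ± 12.2, 75.1 ± 12.4 and 80.1 ± 11.6 CPM in 3-year fish at 37.5 nM, 1-year fish at 37.5 nM and 1-year fish at 3.75 nM. NDUFS7, which lies at the quinone pocket, averaged 49.95 ± 5.57, 48.5 ± 5.81 and 51.2 ± 7.84 CPM in that order. NDUFS3, a subunit of the quinone module, averaged 42.1 ± 7.85, 38.7 ± 5.30 and 45.2 ± 8.36 CPM. NDUFV2, which carries an iron-sulfur cluster beside the flavin, averaged 40.5 ± 5.12, 33.2 ± 5.29 and 36.4 ± 4.72 CPM. The NDUFV2 means of 3-year and 1-year fish at 37.5 nM differed by more than the SD of either group. Its log2 change with age, 0.30 ± 0.11, was the highest of the 6 but did not pass (edgeR adjusted p = 0.157), and the others lay between −0.01 and 0.14. The coefficient of variation between fish had a median over the core subunits of 14.7% in 3-year fish at 37.5 nM, 15.3% in 1-year fish at 37.5 nM and 12.96% in 1-year fish at 3.75 nM. For the assembly factors those medians were 18.4%, 17.2% and 36.4%, highest in the 1-year fish at 3.75 nM. Each median pools the lower and upper number series. At 3.75 nM the series differed in level for these genes. Their sum ran from 47.1 to 61.8 CPM in the lower series and from 27.8 to 38.9 CPM in the upper. The 36.4% is therefore not a spread between fish of a single series.

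The age comparison set 3-year against 1-year fish, all at 37.5 nM rotenone. No member passed the test: 0 of 48 tested members were called by the edgeR quasi-likelihood test at an adjusted p of 0.05, where 1.72% of all genes tested were called. At an unadjusted p under 0.05 there were 10 members, as there were 18.8% of all genes. DESeq2 called 2 members (NDUFAB1 and NDUFAF8; 4.17%, where it called 7.4% of all genes) and limma voom 1 (NDUFAB1; 2.08%, where it called 5.28%). Log2 changes lay above 0 for 39 of the 48, with a median of 0.13 beside −0.0028 over all genes tested. By role the medians were 0.11 for core subunits, 0.10 for accessory subunits and 0.34 for assembly factors. In the upper series 42 of 48 members lay above 0, with a median of 0.18 beside −0.02 over all genes. In the lower series (2 against 4 fish) 28 of 48 did, with a median of 0.028 beside 0.015. There edgeR called 0 of 48 members, and 0.0247% of all genes higher and 0.0555% lower. At an unadjusted p under 0.05 there were 4 members, beside 2474 of 16220 genes.

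The members with the highest log2 changes with age were NDUFAF8, NDUFAB1 and NDUFAF6. NDUFAF8, a partner that stabilises NDUFAF5, ranged from 0.513 over a median of 0.844 to 1.15 CPM in 3-year fish and from 0.311 over a median of 0.441 to 0.713 CPM in 1-year fish. The groups overlapped, although 4 of 6 older fish lay above every younger fish, and the log2 change was 0.90 ± 0.24 (estimate ± SE; edgeR adjusted p = 0.0642). These are low values: NDUFAF8 had 9 to 94 counts per library. NDUFAB1, the mitochondrial acyl carrier protein, ranged from 21.3 over a median of 36.1 to 40.1 CPM in 3-year fish and from 17.7 over a median of 23.8 to 31 CPM in 1-year fish, again with 4 of 6 older fish above every younger fish. It averaged 33.7 ± 7.39 CPM in 3-year fish and 24.0 ± 4.01 CPM in 1-year fish, with a log2 change of 0.51 ± 0.14 (edgeR adjusted p = 0.0743). NDUFAF6, an early assembly factor, averaged 2.75 ± 0.519 CPM in 3-year fish and 2.06 ± 0.525 CPM in 1-year fish (log2 change 0.43 ± 0.19, edgeR adjusted p = 0.242).

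The lowest log2 changes with age belonged to 2 rows of the NDUFA4 kind and 1 assembly factor. For ndufa4b the estimate was −3.77 ± 1.51 (edgeR adjusted p = 0.194) and rests on a few 1-year libraries described further on. NDUFA4L2, in mammals a hypoxia-induced paralog of NDUFA4, averaged 0.355 ± 0.193 CPM in 3-year fish and 0.628 ± 0.345 CPM in 1-year fish (log2 change −0.81 ± 0.49). NDUFAF4, a factor of the quinone module, averaged 1.37 ± 0.141 CPM in 3-year fish and 1.57 ± 0.270 CPM in 1-year fish (−0.18 ± 0.15). In the upper series alone the age comparison again called 0 of 48 members (0.181% of all genes tested), with 3 at an unadjusted p under 0.05 (15.6% of all genes). There DESeq2 called 2 members (4.17%, where it called 6.13% of all genes) and limma voom 1 (2.08%, where it called 5.04%). The interaction of age and number series called 0 of 48 members in edgeR, DESeq2 and limma voom alike, with 1 at an unadjusted p under 0.05. Over all genes it called 0% in edgeR, where 1808 had an unadjusted p under 0.05, and DESeq2 called 63 and limma voom 2. Removing fish 194 brought the count in the age comparison to 1, NDUFAB1. Over all genes, 93 rose and 99 fell in that fit, beside 145 and 133 with all fish.

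**Figure D2:**
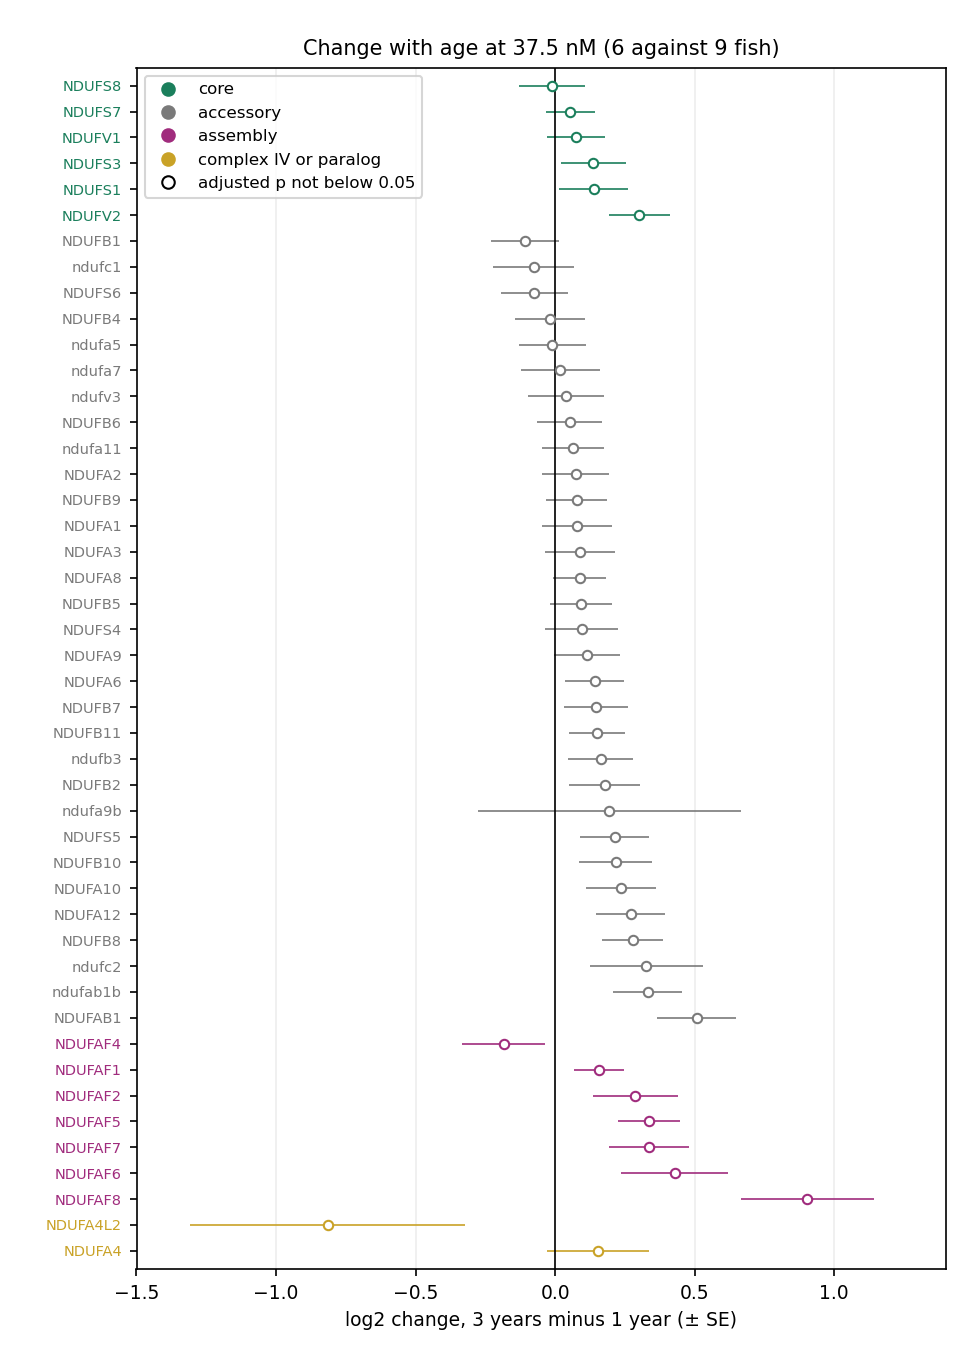
Log2 change with age at 37.5 nM, 3 years minus 1 year, for tested members with their SE, ordered by role and size; ndufa4b, at −3.77, lies outside the axis and is not drawn. All symbols are open because no member passed an adjusted p of 0.05.

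The dose comparison set 37.5 nM against 3.75 nM in 1-year fish (n = 9 each). At 37.5 nM, 6 of 47 tested members fell (12.8%, where 8.19% of all genes tested fell), and 0 rose (3.19% of all genes rose). By role, those that fell were 4 of 7 assembly factors, 2 of 31 accessory subunits and 0 of 7 core subunits. Log2 changes lay below 0 for 44 of 47 members, with a median of −0.13 beside 0.03 over all genes. The medians were −0.73 for assembly factors, −0.15 for accessory subunits and −0.09 for core subunits. No core subunit had an unadjusted p under 0.05, as 28% of all genes had, and DESeq2 and limma voom called none of them either.

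NDUFAF1 (ENSDARG00000025549), which acts with ECSIT in building the membrane arm, ranged from 7.95 over a median of 10.4 to 11.9 CPM at 37.5 nM and from 11.4 over a median of 13.6 to 25 CPM at 3.75 nM. The ranges overlapped through a single fish: 8 of 9 at 37.5 nM were lower than any at 3.75 nM. Its means were 10.1 ± 1.14 and 16.5 ± 5.21 CPM at 37.5 and 3.75 nM, and it fell by 0.71 ± 0.16 on the log2 scale (edgeR adjusted p = 0.0116). NDUFAF7 (ENSDARG00000033134), a methyltransferase of the mitochondrial matrix, ranged from 1.89 over a median of 2.25 to 2.77 CPM at 37.5 nM and from 1.88 over a median of 3.43 to 6.04 CPM at 3.75 nM. The ranges overlapped at the low end. It averaged 2.24 ± 0.306 CPM at 37.5 nM and 3.72 ± 1.22 CPM at 3.75 nM. It fell by 0.73 ± 0.18 (edgeR adjusted p = 0.0166). These 2 calls held in all 18 fits that left out 1 fish, and also without the 5 fish rich in intestine markers, at edgeR adjusted p-values of 0.0264 and 0.0340.

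The other 4 calls were closer to the threshold. NDUFAF4 (ENSDARG00000077859) ranged from 1.17 over a median of 1.6 to 1.89 CPM at 37.5 nM and from 1.23 over a median of 2.31 to 5.06 CPM at 3.75 nM. It averaged 1.57 ± 0.270 CPM at 37.5 nM and 2.97 ± 1.54 CPM at 3.75 nM, a log2 change of −0.91 ± 0.27 (edgeR adjusted p = 0.0350). NDUFAF8 (ENSDARG00000096749) ranged from 0.311 over a median of 0.441 to 0.713 CPM at 37.5 nM and from 0.336 over a median of 1.02 to 1.86 CPM at 3.75 nM. It averaged 0.460 ± 0.137 CPM at 37.5 nM and 0.989 ± 0.533 CPM at 3.75 nM, a log2 change of −1.11 ± 0.32 (edgeR adjusted p = 0.0348). For both genes the ranges overlapped widely, and the 3.75 nM fish reached far higher.

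NDUFA8 (ENSDARG00000058041), an accessory subunit facing the intermembrane space, ranged from 25.05 over a median of 32 to 38.9 CPM at 37.5 nM and from 33.9 over a median of 40.2 to 52.8 CPM at 3.75 nM. The groups overlapped, with 5 of 9 fish at 37.5 nM lower than any at 3.75 nM. It averaged 32.7 ± 4.10 CPM at 37.5 nM and 42.6 ± 7.60 CPM at 3.75 nM (log2 change −0.38 ± 0.11, edgeR adjusted p = 0.0402). The membrane-arm subunit ndufc1 (ENSDARG00000103101) ranged from 7.46 over a median of 9.44 to 12.1 CPM at 37.5 nM and from 10.5 over a median of 12.3 to 15.2 CPM at 3.75 nM, with 7 of 9 fish at 37.5 nM lower than any at 3.75 nM. It averaged 9.53 ± 1.36 CPM at 37.5 nM and 12.5 ± 1.75 CPM at 3.75 nM (−0.39 ± 0.11, edgeR adjusted p = 0.0265). In the fits that left out 1 fish, NDUFAF4 and NDUFAF8 each lost the call in 11 of 18, NDUFA8 in 12 and ndufc1 in 2.

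The remaining assembly factors were not called over all fish of the dose comparison. NDUFAF6 had a log2 change of −0.86 ± 0.28 (edgeR adjusted p = 0.0513) and NDUFAF5, which hydroxylates NDUFS7, had −0.34 ± 0.12 (edgeR adjusted p = 0.0778). NDUFAF2, which acts late in assembly, had −0.07 ± 0.20. The highest log2 changes, for ndufv3, NDUFB9 and ndufc2, were only 0.07, 0.07 and 0.01, within their SEs. For none of the 47 members did the dose groups separate completely, as they did downward for 0.175% of all genes. The number of members called went to 3 without any 1 of fish 165, 166, 175, 177, 198 and 201, to 2 without fish 163 or 167, and to 2 without the 5 fish rich in intestine markers. It was 10 without fish 192. The count over all genes moved the same way, with 1267 falling when all fish were kept. Those that fell were 741 without fish 163, 707 without fish 167 and 846 without the 5 fish. They ran from 724 to 1027 in the fits that gave 3 members, and were 1658 without fish 192. The lower member counts therefore came with a general loss of calls.

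Split by number series, members passed the dose test in the lower series and not in the upper. In the upper series (n = 5 each) 0 of 48 members were called by edgeR, with 2 at an unadjusted p under 0.05 and 0 called by DESeq2 or limma voom. Over all genes edgeR called 0% there, with 1218 at an unadjusted p under 0.05, DESeq2 called 143 and limma voom 0. Complete separation of the doses, downward at 37.5 nM, was seen for NDUFAF1 and NDUFA12, 2 of 48 members (4.17%, against 1.27% of all genes). NDUFA12, the subunit that takes the place of NDUFAF2, was singled out after its values were seen: it averaged 3.58 ± 0.466 CPM at 37.5 nM and 4.80 ± 0.231 CPM at 3.75 nM in the upper series. In the lower series (n = 4 each) 12 of 47 members fell (25.5%, where 17.5% of all genes fell) and 0 rose (17.3% of all genes rose). Those 12 were 6 of 7 assembly factors, 5 of 31 accessory subunits and 1 of 7 core subunits. Complete separation, downward at 37.5 nM, was seen for 15 of 47 members in the lower series (31.9%, against 18% of all genes). The same 12 members were called without fish 166, the fish of the lower series that is rich in intestine markers. The accessory and core shares, 16.1% and 14.3%, were near the background of 17.5%.

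**Figure D3:**
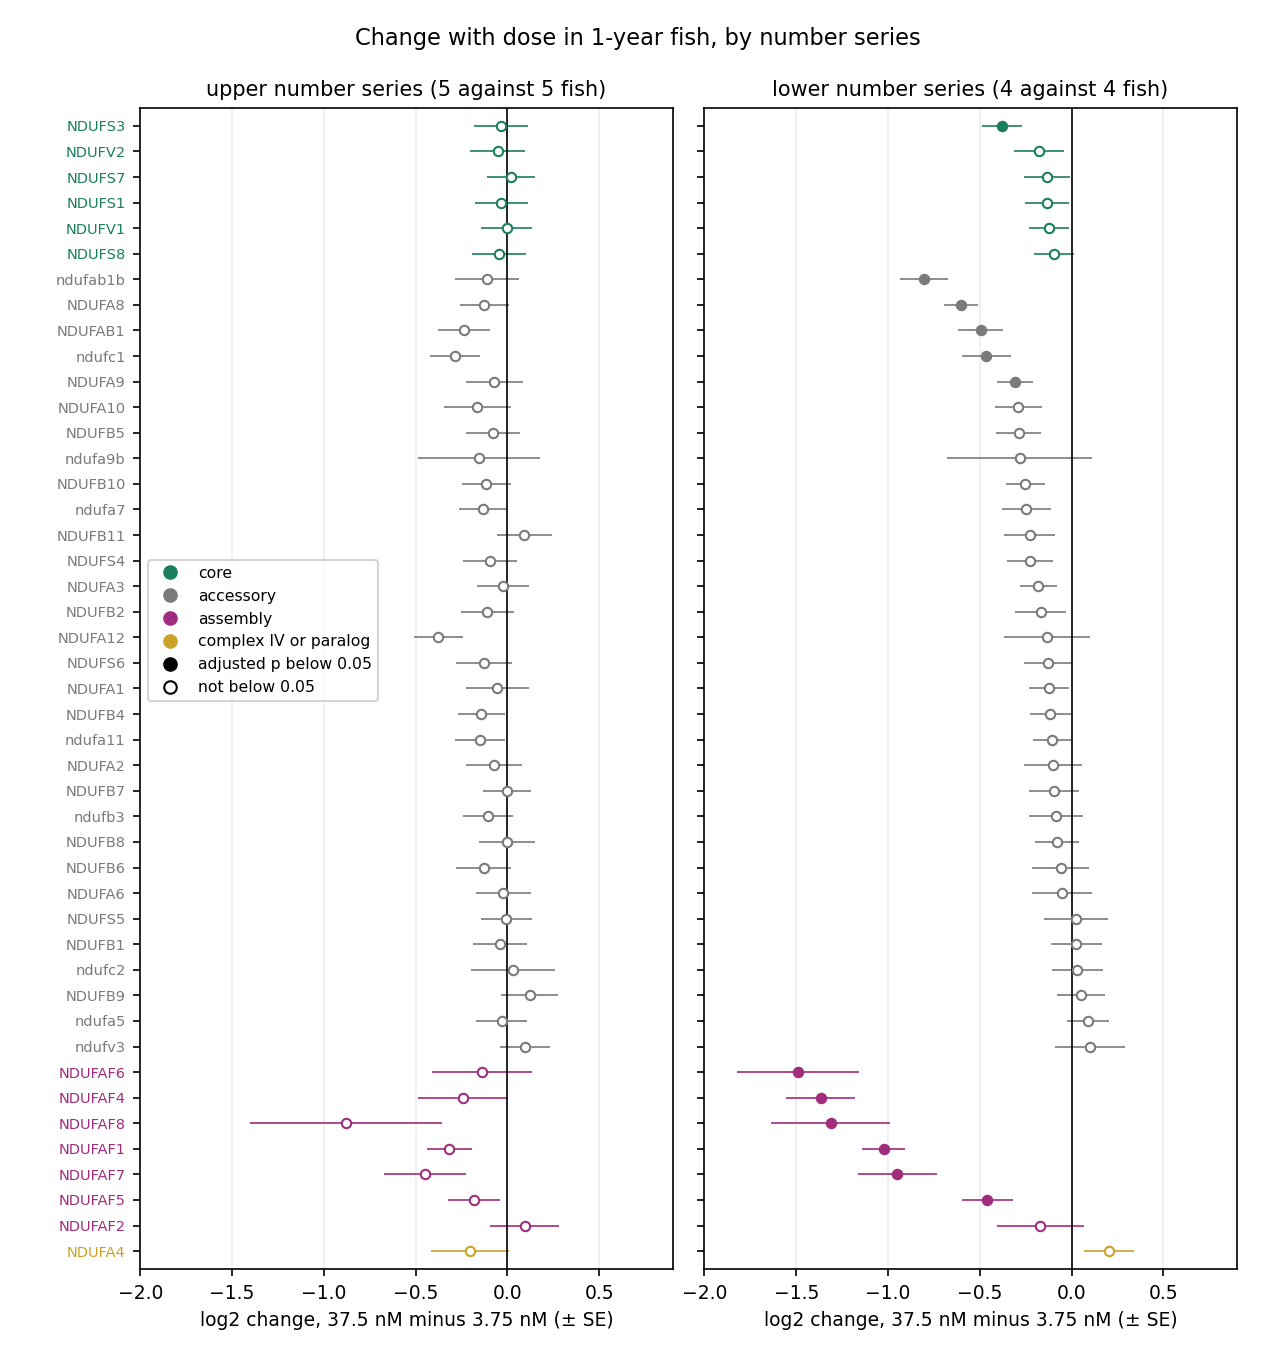
Log2 change with dose, 37.5 nM minus 3.75 nM, for members tested in the lower number series, without NDUFA4L2, each with its SE; the upper number series is on the left and the lower on the right, and filled symbols passed an adjusted p of 0.05. Filled symbols appear for 12 members in the lower series, 6 of them assembly factors, and for 0 in the upper series.

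NDUFAF1 shows the split fish by fish. In the upper series it had 7.95, 10.6, 10.8, 9.20 and 9.23 CPM at 37.5 nM and 13.6, 11.9, 13.1, 11.4 and 11.6 CPM at 3.75 nM. In the lower series it had 11.9, 9.98, 10.4 and 10.6 CPM at 37.5 nM and 21.5, 19.7, 20.8 and 25 CPM at 3.75 nM. The doses were separate in both series, by a narrow margin in the upper one and by a wide margin in the lower one, where the 3.75 nM fish were high. The log2 change was −0.32 ± 0.12 in the upper series (edgeR adjusted p = 0.599) and −1.02 ± 0.12 in the lower series (edgeR adjusted p = 0.000464). The interaction, upper minus lower, was 0.65 ± 0.17 (edgeR adjusted p = 0.0315), and it held in 16 of 18 fits that left out 1 fish.

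NDUFAF4 followed the same layout at a lower level. In the upper series it had 1.17, 1.26, 1.88, 1.60 and 1.33 CPM at 37.5 nM and 2.31, 2.10, 1.59, 1.63 and 1.23 CPM at 3.75 nM. In the lower series it had 1.89, 1.82, 1.60 and 1.60 CPM at 37.5 nM and 5.06, 3.19, 4.69 and 4.87 CPM at 3.75 nM. The doses overlapped in the upper series and were separate in the lower. The log2 change was −0.24 ± 0.24 in the upper series and −1.37 ± 0.19 in the lower (edgeR adjusted p = 0.00102). The interaction was 1.06 ± 0.30 (edgeR adjusted p = 0.0459) and held in only 5 of 18 fits that left out 1 fish. These 2 were the members called higher in the interaction, 2 of 48 (4.17%, where 1.76% of all genes were called higher and 4.57% lower). The count went to 0 without fish 192 or 193. It was 1 without any 1 of fish 166, 167, 173, 174, 175, 177, 191, 200, 201 and 202. Without the 5 fish rich in intestine markers it was 0. Over all genes, 303 were called higher and 786 lower with all fish. Those counts were 173 and 537 without fish 192, 156 and 503 without fish 193, and 30 and 50 without the 5 fish. They ran from 194 to 295 and from 287 to 667 in the fits that gave 1 member.

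For the other assembly factors the 2 series are best read side by side. Early factor NDUFAF6 had a log2 change with dose of −0.14 ± 0.27 in the upper series and −1.49 ± 0.33 in the lower (edgeR adjusted p = 0.00929 in the lower). NDUFAF8 had −0.88 ± 0.52 in the upper series and −1.31 ± 0.32 in the lower (edgeR adjusted p = 0.0146). NDUFAF7 had −0.45 ± 0.22 in the upper series and −0.95 ± 0.21 in the lower (edgeR adjusted p = 0.00967). NDUFAF5 had −0.18 ± 0.14 in the upper series and −0.46 ± 0.14 in the lower (edgeR adjusted p = 0.0337), where it fell less than the factors just named. Only NDUFAF2 was not called in the lower series, with 0.09 ± 0.19 in the upper and −0.17 ± 0.24 in the lower. No difference between the series passed the test for these 5 factors, the closest being NDUFAF6 with an interaction of 1.29 ± 0.44 (edgeR adjusted p = 0.0900).

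**Figure D4:**
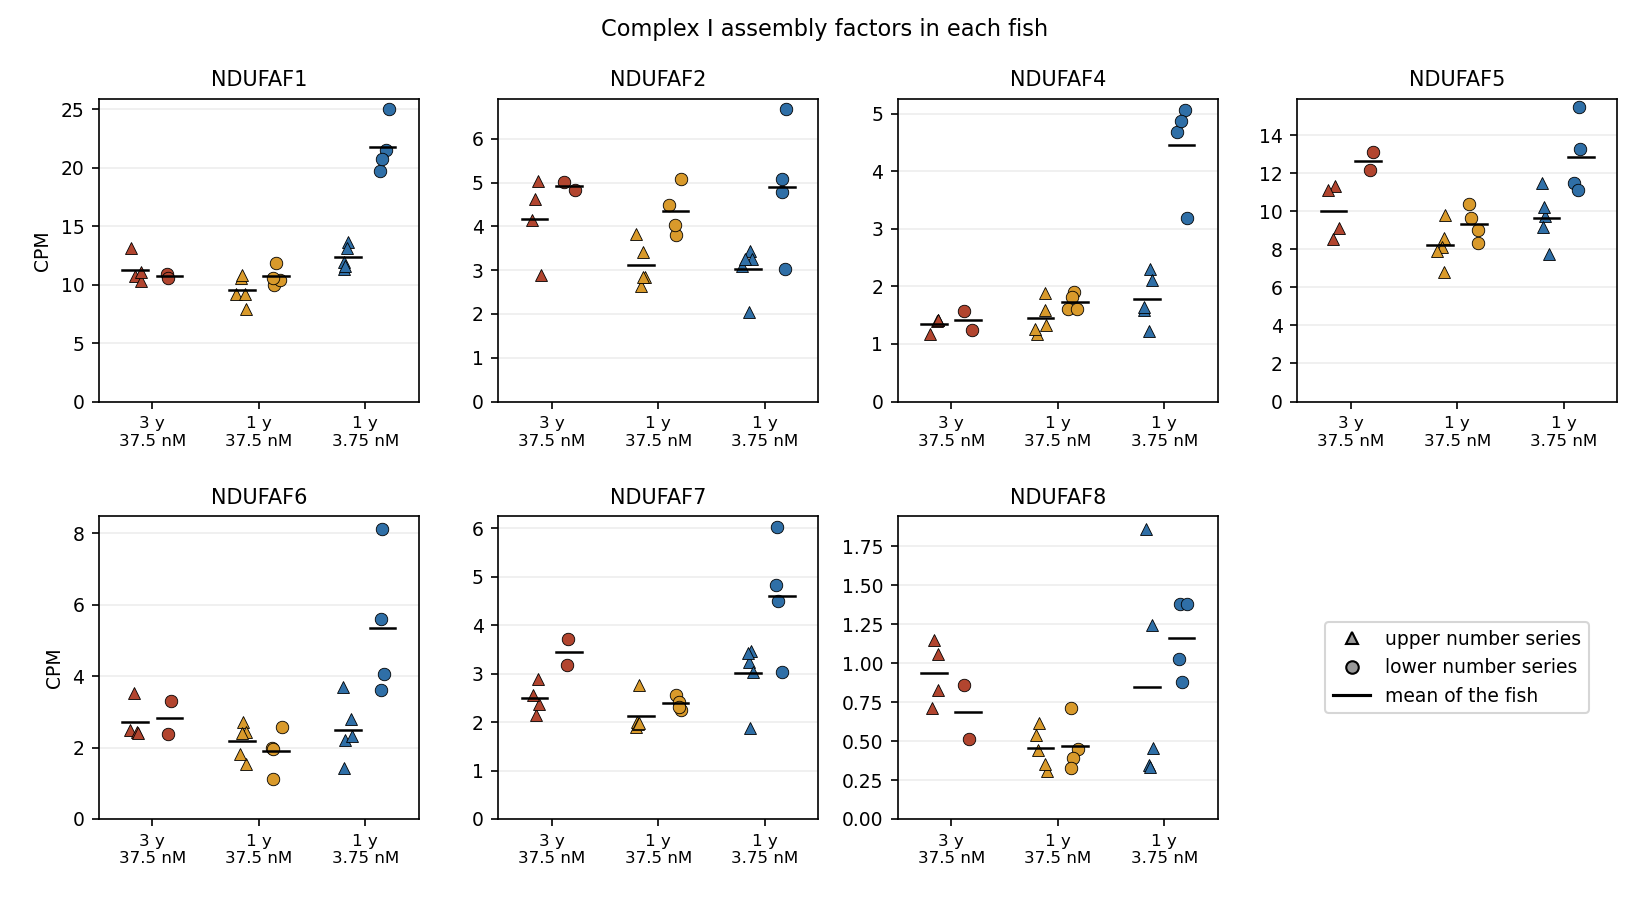
CPM of the 7 assembly factors in each fish by group, with triangles for the upper and circles for the lower number series and bars at the means; each panel has its own axis from 0. For NDUFAF1 the 4 lower-series fish at 3.75 nM sit between 19.7 and 25 CPM, above the other 20 fish.

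Outside the assembly factors, 6 subunits fell with dose in the lower series. The acyl carrier protein is encoded by 2 of them: ndufab1b (ENSDARG00000014915) averaged 28.6 ± 3.14 CPM at 37.5 nM and 49.8 ± 6.60 CPM at 3.75 nM there, and NDUFAB1 (ENSDARG00000058463) 26.5 ± 3.31 and 37.4 ± 3.28 CPM in that order. Their log2 changes were −0.80 ± 0.13 and −0.50 ± 0.12 (edgeR adjusted p = 0.00217 and 0.0144). These rows held 53.9% and 46.1% of the pair's counts, and how reads shared by near-identical genes were counted is not stated. NDUFA8 averaged 33.2 ± 2.42 CPM at 37.5 nM and 50.3 ± 1.79 CPM at 3.75 nM (−0.60 ± 0.09, edgeR adjusted p = 0.0018). The changes of ndufc1 (−0.46 ± 0.13), NDUFS3 (−0.38 ± 0.11) and NDUFA9, a subunit beside the quinone site (−0.31 ± 0.10), had edgeR adjusted p-values of 0.0278, 0.0287 and 0.0408. NDUFS3 was the only core subunit that edgeR called for age, dose, number series or their interactions; leaving out 1 fish ended that call in 6 of 8 fits.

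Within a dose, edgeR called members between the series at 3.75 nM and none at 37.5 nM. At 3.75 nM (upper minus lower, 5 against 4 fish) 4 of 48 members were lower in the upper series (8.33%, where 6.66% of all genes were, so near the background). NDUFAF1 averaged 12.3 ± 0.987 CPM in the upper and 21.8 ± 2.32 CPM in the lower series (log2 change −0.83 ± 0.13, edgeR adjusted p = 0.0155). NDUFAF4 averaged 1.77 ± 0.430 and 4.45 ± 0.853 CPM in that order (−1.33 ± 0.24, edgeR adjusted p = 0.0186). NDUFA8 (−0.47 ± 0.12) and ndufab1b (−0.67 ± 0.17) followed, at edgeR adjusted p-values of 0.0341 and 0.0379. The series separated completely, downward in the upper one, for 7 of 48 members (14.6%, against 9.75% of all genes). The count of called members went to 0 without fish 163, 166 or 167, to 2 without fish 165, 191 or 192, and to 0 without the 5 fish rich in intestine markers, 3 of which belong to this comparison. Without them 0.0197% of all genes were called there. With all fish, 830 of all genes were called higher and 1055 lower. Those counts were 37 and 99 without fish 163, 4 and 13 without fish 166, and 5 and 12 without fish 167. They were 462 and 652 without fish 165, 171 and 290 without fish 191, and 234 and 351 without fish 192. At 37.5 nM (5 against 4 fish) edgeR called 0 of 48 members, with 0.0313% of all genes called, and 3 members at an unadjusted p under 0.05 (20.5% of all genes). DESeq2 called 2 members there (NDUFA4L2 and ndufa4b; 4.17%, where it called 10.2% of all genes) and limma voom 0 (2.8% of all genes).

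The 4 lower-series fish at 3.75 nM can also be set against the other 20 fish of the study. All 4 lay above all 20 for 4 of 47 members (8.51%, near the 6.43% of all genes), namely NDUFAF1, NDUFAF4, NDUFA8 and ndufab1b. Summed over the 7 assembly factors they had 60.02, 47.1, 51.3 and 61.8 CPM, and the other 20 fish had 24.1 to 38.9 CPM. Summed over the 7 core subunits they had 729, 635, 572 and 673 CPM, and the other 20 fish had 442 to 687 CPM. The sums did not overlap for the assembly factors and overlapped for the core, where only fish 163 lay above the other 20. Taken singly, only NDUFAF1 and NDUFAF4 of the 7 assembly factors put all 4 fish above the other 20. NDUFAF1 weighs heavily in the sum, with a median of 21.1 CPM in the 4 fish and 10.8 CPM in the other 20. No background over all genes is given for such sums.

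Markers of pancreas were measured beside these values. The islet markers (ins, gcga, sst2 and PYY) summed to 68.4 to 600 CPM in the 4 fish and to 0.144 to 343 CPM in the other 20, where the highest value belonged to fish 198 and the median was 2.35 CPM. The insulin gene ins had 61.3 to 497 CPM in the 4 fish and 0 to 296 CPM in the other 20. The exocrine pancreas markers, 13 gene rows, summed to 3118 to 18716 CPM in the 4 fish and to 63.5 to 30373 CPM in the other 20, so these ranges overlapped. Leukocyte markers, 9 gene rows, summed to 63.6 to 316 CPM in the 4 fish and to 79 to 725 CPM in the other 20. The part of these cells in the result was not tested. Hepatocyte markers summed to 140887 to 221757 CPM in the 4 fish, within the range of the others.

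The wider complex I pathway was described from lists of genes that are not members. Of 11 tested assembly factors with other names, 3 fell with dose over all 1-year fish and 0 rose (8.19% of all genes fell and 3.19% rose). Without the 5 fish rich in intestine markers, CHCHD4 and ECSIT were the 2 that fell (5.47% of all genes fell). CHCHD4 (ENSDARG00000033376), of the import machinery of the intermembrane space, averaged 5.39 ± 1.58 CPM at 37.5 nM and 16.1 ± 10.7 CPM at 3.75 nM (log2 change −1.57 ± 0.38, edgeR adjusted p = 0.0155). ECSIT (ENSDARG00000062834), the partner of NDUFAF1, averaged 5.52 ± 1.19 and 16.2 ± 10.3 CPM in that order (−1.55 ± 0.34, edgeR adjusted p = 0.0105). TMEM70 (ENSDARG00000078773), an assembly factor of the membrane arm and of ATP synthase, averaged 3.26 ± 0.556 and 6.06 ± 2.75 CPM (−0.89 ± 0.24, edgeR adjusted p = 0.0230).

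The number series can be set side by side for these factors as well. Of the 11, 6 fell with dose in the lower series (CHCHD4, ECSIT, TMEM70, AIFM1, FOXRED1 and TMEM126A) and 1 rose, NUBPL, an iron-sulfur carrier for complex I, where 17.5% of all genes fell and 17.3% rose. Without fish 166, 5 of these 6 fell, all but TMEM126A, and NUBPL rose (15.4% and 14.7% of all genes). ECSIT averaged 6.5 ± 0.732 CPM at 37.5 nM and 26.5 ± 3.26 CPM at 3.75 nM in the lower series (log2 change −2.03 ± 0.14, edgeR adjusted p = 0.000134), and its interaction with the series was 1.28 ± 0.34 (edgeR adjusted p = 0.0374, lost in 12 of 18 fits that left out 1 fish and without the 5 fish rich in intestine markers). In the upper series 0 of 11 were called by edgeR, DESeq2 or limma voom, with 1 at an unadjusted p under 0.05 in edgeR. The 4 lower-series fish at 3.75 nM lay above the other 20 fish for 5 of 11 of these factors (CHCHD4, AIFM1, ECSIT, TMEM70 and dmac2), as for 6.43% of all genes. With age, edgeR called 0 of these 11 (3 at an unadjusted p under 0.05), 0 of 18 iron-sulfur suppliers (0 unadjusted), 0 of 13 regulators (4 unadjusted) and 0 of 7 mitochondrially encoded subunits (1 unadjusted). DESeq2 called 1, 0, 2 and 0 of these lists in that order, and limma voom 0, 0, 1 and 0. Over all genes tested with age, edgeR called 1.72%, DESeq2 7.4% and limma voom 5.28%. In edgeR 18.8% of all genes had an unadjusted p under 0.05 there.

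Suppliers of iron-sulfur clusters and regulators of mitochondrial genes included genes of both directions in the lower series. Of 18 tested gene rows of iron-sulfur supply, 3 fell with dose over all 1-year fish, where 8.19% of all genes fell: HSPA9, the mitochondrial Hsp70 (−0.91 ± 0.20), LYRM4, a partner of NFS1 (−0.86 ± 0.25), and BOLA3 (−0.38 ± 0.11), at edgeR adjusted p-values of 0.0110, 0.0377 and 0.0388. HSPA9, LYRM4, GLRX5 and BOLA3 fell in the lower series, while the cysteine desulfurase NFS1 rose by 0.88 ± 0.13 and ISCA1 by 1.12 ± 0.24 (edgeR adjusted p = 0.00127 and 0.00729), where 17.5% of all genes fell and 17.3% rose. Of 13 regulators of mitochondrial gene expression, LRPPRC, which stabilises mitochondrial messenger RNA, fell by 0.70 ± 0.16 and tfb2m, a mitochondrial transcription factor, by 0.62 ± 0.18 over all 1-year fish (edgeR adjusted p = 0.0118 and 0.0364). Without the 5 fish rich in intestine markers, HSPA9, LYRM4 and LRPPRC still fell with dose over all 1-year fish, and BOLA3 and tfb2m were not called. Without fish 166, LYRM4 lost its call in the lower series. The LYRM4 row that fell, ENSDARG00000101110, did not exceed 0.91 CPM in any fish. Another row of that gene, lyrm4 ENSDARG00000078352, was more abundant, at 3.58 to 7.40 CPM. It was not called with dose, either over all 1-year fish or in the lower series.

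Of these 13 regulators, 4 fell with dose in the lower series (ESRRA, tfb2m, LRPPRC and ppargc1b) and 4 rose (GABPA, GABPB1 and 2 rows named YY1, ENSDARG00000027978 and ENSDARG00000042796), where 17.5% of all genes fell and 17.3% rose. The same 8 were called without fish 166. ESRRA, a nuclear receptor of mitochondrial biogenesis, averaged 13.3 ± 4.06 CPM at 37.5 nM and 42.2 ± 16.6 CPM at 3.75 nM there (log2 change −1.67 ± 0.33, edgeR adjusted p = 0.00525). The ETS factor GABPA averaged 13.1 ± 1.4 and 8.84 ± 0.492 CPM in that order (0.56 ± 0.12, edgeR adjusted p = 0.00674). In the interaction of dose and series, ESRRA (1.74 ± 0.47) and tfb2m (0.73 ± 0.20) were called higher, and GABPA (−0.70 ± 0.19) and YY1 ENSDARG00000042796 (−1.03 ± 0.27) lower. Their edgeR adjusted p-values were 0.0365, 0.0437, 0.0393 and 0.0328, and these 4 calls were lost in 10, 8, 15 and 15 of 18 fits that left out 1 fish. Without the 5 fish rich in intestine markers 0 of the 13 were called in the interaction, as were 0.181% of all genes higher and 0.301% lower.

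The complex I subunits encoded in mitochondrial DNA did not share the downward direction. In the dose comparison all 7 had log2 changes above 0, with a median of 0.33, and 0 of 7 were called by edgeR, DESeq2 or limma voom, with 2 at an unadjusted p under 0.05 in edgeR. MT-ND5, of the proton pumps, averaged 2852 ± 1050 CPM at 37.5 nM and 2132 ± 420 CPM at 3.75 nM (0.42 ± 0.19, edgeR adjusted p = 0.150). Its estimate ran from 0.25 to 0.49 when 1 fish was left out, and its edgeR adjusted p was highest, 0.290, without fish 199. Summed over the 7 subunits on the TMM scale, fish 199 had 25882 CPM, and the next 1-year fish at 37.5 nM, fish 198, had 16101 CPM. As CPM of the raw library total the gap was narrower. Fish 199 then had 18622 CPM, fish 202 had 16526 and fish 198 had 16470. MT-ND4, mt-nd4l, MT-ND5 and MT-ND6 rose with dose in the lower series, by 0.46 ± 0.16 to 0.55 ± 0.18, at edgeR adjusted p-values of 0.0352 to 0.0489, each lost in 6 or 7 of 8 fits that left out 1 fish, that without fish 166 among them (17.3% of all genes rose). As the strand setting is not stated, reads of MT-ND6 and of genes on the other strand cannot be told apart.

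Of 43 tested gene rows of complexes II to V, 3 fell with dose over all 1-year fish and 0 rose (8.19% and 3.19% of all genes), with a median log2 change of −0.14 beside −0.13 for the complex I members. They were cox6a1 (−0.97 ± 0.26) and COX7A2 (−0.48 ± 0.13) of complex IV and UQCR10 (−0.50 ± 0.14) of complex III. Their edgeR adjusted p-values were 0.0235, 0.0261 and 0.0306. UQCR10 alone fell without the 5 fish rich in intestine markers, where 5.47% of all genes fell. In the lower series 13 of the 43 fell and 0 rose (17.3% of all genes rose), with a median log2 change of −0.19. Without fish 166, 13 also fell, 12 of them the same, where 15.4% of all genes fell. The downward count with all fish of the lower series stands beside 12 of 47 complex I members and 17.5% of all genes. With age 1 of the 43 rose, where 0.897% of all genes rose. This was atp5mc1 of ATP synthase, by 0.58 ± 0.14 (edgeR adjusted p = 0.0426). It was not called without the 5 fish rich in intestine markers, where 0.717% of all genes rose.

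Among duplicated members, ndufa4b (ENSDARG00000056108) differed from NDUFA4 in where it was found. It had 7.44, 33.7, 17.3 and 47.2 CPM in fish 198, 200, 166 and 190, and 0.974 CPM in fish 192, the 5 fish rich in intestine markers. In the other 19 fish it ran from 0.0224 to 0.694 CPM. The intestine-restricted markers, 11 gene rows such as VIL1 and FABP2, summed to 4747, 27733, 6647, 3276 and 675 CPM in fish 198, 200, 166, 190 and 192. Those 5 fish are 1-year fish, 2 at 37.5 nM and 3 at 3.75 nM. Fish 198 and 200 were therefore in the age comparison, on the 1-year side, and without them ndufa4b did not pass the count filter there. NDUFA4 took 97.9% of the counts of that pair, and ndufa9b 2.44% of the counts it shares with NDUFA9, with 3 to 83 counts per library.

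**Figure D5:**
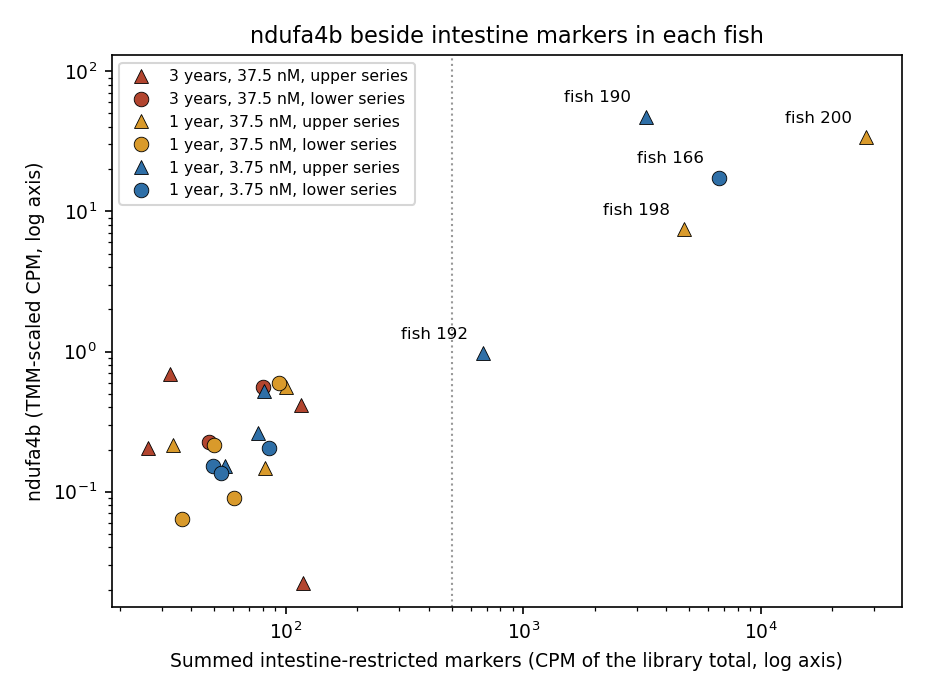
TMM-scaled CPM of ndufa4b against 11 intestine-restricted marker rows summed as CPM of the raw library total, in each fish, both on log axes; the dotted line marks 500 CPM. The 5 fish right of the line have 0.974 to 47.2 CPM of ndufa4b, and the 19 others at most 0.694 CPM.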

How the data were processed

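The authors deposited raw counts per gene. The submitters' processing notes list CASAVA 1.8.2, STAR 2.4.1d, featureCounts 1.4.6-p4 and the build GRCz10. Per the labels' protocols, the TruSeq RNA v2 kit was used on total RNA of the liver. The strand setting is not stated. The authors also deposited values named RPKM, whose library divisor ran down the rows and repeated after 44 of them (the log ratio had an SD of 6.52e-05 at that period and at least 0.231 at others), so they served only to recover gene lengths. The tables hold identifiers and no coordinates.

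Both count tables were joined into 32105 rows, 26269 with a symbol. Genes were kept by filterByExpr, TMM scaling was applied (also to CPM, except for marker sums, which use raw totals), and each comparison had its own edgeR 4.0.16 quasi-likelihood F test (R 4.3.3, two-sided) over all genes, adjusted by Benjamini-Hochberg, with a threshold of 0.05. SEs were obtained from the log2 change and F. Each library is its own fish, and no replicate pair was closer than a chi-square per gene of 89.3. The fit was tested on simulated data first. Alternatives were other scalings (RLE, upper quartile, library size), other filters, DESeq2 1.42.0, limma voom (limma 3.58.1), all 24 fish in 1 fit, number series as a covariate or alone, and 1 fish left out at a time. Leaving out the 5 libraries above 500 CPM of intestine-restricted markers (11 of 14 marker rows, without those above 100 CPM in every fish) was added after the data were seen.

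Members and lists were chosen with earlier results of these data known. The values of 1 core subunit are not reported here, though counts and sums over a role include it. Values are given for the other core subunits, every member past the threshold in any comparison and duplicates. They are also given for the 3 highest and lowest changes with age and dose and for the extremes of level per length. Of the listed pathway genes past the threshold, some are given with values and others by name or count only. Lists not described gene by gene are given by counts. Of the list entries, 11 of 14 other assembly factors, 16 of 16 iron-sulfur suppliers, 13 of 13 regulators, 7 of 7 mitochondrial subunits and 39 of 43 subunits of complexes II to V matched a gene row. Promoter sequences were not used here.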

Additional observations from a re-analysis of the deposited data

Results flagged for a closer look

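NDUFAF1 was flagged for 1 fish that stood apart from its group: among 3-year fish at 37.5 nM, fish 196 had 13.1 CPM and the nearest of the other 5 fish had 11.1 CPM. It was the only such fish in 64 groups searched, and chance flags about 1 group in 20.

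The change of NDUFAF1 with dose differed between the number series, with an interaction of 0.65 on the log2 scale (upper minus lower; edgeR quasi-likelihood adjusted p = 0.0315). The change of NDUFAF4 with dose differed as well, with an interaction of 1.06 (edgeR adjusted p = 0.0459). Both estimates were as large without the 5 fish rich in intestine markers, at 0.72 ± 0.18 and 1.12 ± 0.38, where their edgeR adjusted p-values were 0.0815 and 0.142.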

How the results depend on the processing

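In the age comparison, where the main count was 0, upper-quartile scaling gave 1, DESeq2 2 and limma voom 1 (2.28%, 7.4% and 5.28% of all genes). In the dose comparison, where it was 6, library size alone, DESeq2, limma voom and 1 fit over all 24 fish each gave 10, all of them holding the same 6, while they called 10.8%, 17.5%, 25.8% and 20.4% of all genes, against 11.4%. Keeping every gene with a count gave 2, as did leaving out the 5 fish rich in intestine markers (4.31% and 8.24% of all genes). Number series as a covariate gave 9 of 48 members (13.7% of all genes). The lower series alone gave 12 and the upper 0. For dose in the lower series, against 12, upper-quartile scaling and 1 fit over all 24 fish each gave 9, and no filter 8. Library size alone gave 15, DESeq2 13 and a mean of at least 1 CPM 11. In that order 34.9%, 23.5%, 18.9%, 34.9%, 40.1% and 40% of all genes were called, against 34.8%. For age in the upper series DESeq2 gave 2 and limma voom 1, against 0 (6.13%, 5.04% and 0.181% of all genes). For the number series at 37.5 nM DESeq2 gave 2, against 0 (10.2% and 0.0313%). At 3.75 nM, against 4, upper-quartile scaling, library size alone and no filter gave 2 (10.4%, 8.07% and 3.61% of all genes). DESeq2 gave 9, limma voom 8, 1 fit over all 24 fish 10 and the set without the 5 fish 0. The last 4 called 22.4%, 28.5%, 19.1% and 0.0197% of all genes, against 11.9%. For the interaction of dose and series, against 2, library size alone gave 0 and no filter 1. DESeq2 gave 6, limma voom 3 and the set without the 5 fish 0. In the order named, these 5 settings called 4.98%, 2.59%, 11.9%, 16.3% and 0.482% of all genes, against 6.33%. The causes were not tested.

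Leaving out 1 fish at a time gave 0 to 1 members for age, 2 to 10 for dose and 8 to 12 for dose in the lower series. It gave 0 to 5 for the series at 3.75 nM and 0 to 3 for the interaction of dose and series. It gave 0 throughout for dose and age in the upper series, the series at 37.5 nM and the interaction of age and series. Over all genes, the counts called higher and lower were 59 to 232 and 56 to 327 for age. For dose they were 193 to 860 and 707 to 1658, and in the lower series 2037 to 2453 and 2069 to 2758. They were 4 to 1642 and 12 to 1870 for the series at 3.75 nM. For the interaction of dose and series they were 156 to 724 and 287 to 1324. For dose in the upper series both were 0, and for age there 1 to 69 and 3 to 50. The age estimate had another sign in the lower series alone than over both for 13 of 48 members. Of those described by value, it moved by at least 1 SE for NDUFA4 (−0.13), NDUFB9 (−0.0578), ndufa4b (0.71), ndufa9b (−0.43) and ndufv3 (−0.20), none of them called. The dose estimate changed sign for 4 of 47 members in the lower series alone and for 4 of 47 in the upper; moves of at least 1 SE among those described by value were NDUFA4 in the lower (0.20) and NDUFA4L2 in the upper (0.90). For NDUFA4 the age estimate ran from −0.0355, without fish 195, to 0.26 when 1 fish was left out. Over all genes, upper-quartile scaling gave 242 higher and 126 lower with age beside 145 and 133, and library size alone gave 849 higher and 429 lower between the series at 3.75 nM beside 830 and 1055. No scaling moved the median of all genes in the age or dose comparison by over 0.1. No paired analysis was possible because the fish numbers are unique and replicate numbers follow accession order. The promoter motif search was not run. NDUFAF8, ndufa9b, NDUFA4L2 and ndufa4b rest on few counts in most libraries, so differences in them were detectable only where large.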
